A study of Mus musculus with 4 samples.

Results

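The Gimap genes encode the GTPases of immunity-associated protein family, and 8 of them (Gimap1, Gimap3, Gimap4, Gimap5, Gimap6, Gimap7, Gimap8 and Gimap9) are followed here through the stages of mouse thymocyte maturation. They were taken by name from the 31053 gene rows of 2 single-cell gene expression libraries, and all 8 had UMIs (unique molecules) in both. Wild-type mouse thymi had been transplanted and were taken 28 days later under 2 conditions named turnover and autonomy, with 1 gene expression library and 1 library of rearranged T cell receptor chains each. In turnover the thymocytes of the graft are replaced by cells that arrive from outside, and in autonomy the graft goes on making T cells without them, from cells it already held. The sort took double negative thymocytes of stages DN3-DN4, ISP (immature single positive) thymocytes and DP (double positive) thymocytes, and a droplet assay read the 5′ ends of their transcripts. The labels gave no host strain, no age and no number of animals, and of the cells that showed transcripts of only 1 sex chromosome, turnover held 2459 with Y-linked UMIs and 0 with Xist, against 934 and 1781 in autonomy.

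GIMAP proteins are small GTP-binding proteins found mainly in lymphocytes, several of them anchored to membranes inside the cell. Loss of Gimap5 gives lymphopenia in rats and mice, loss of Gimap1 depletes mature T and B cells, and Gimap4 has been linked to the pace of T cell death. In the thymus, cells pass from DN stages through ISP to DP, where Rag1 recombines the receptor alpha chain. Positive selection then raises Cd5 and Itm2a, and S1pr1, a target of Klf2, lets mature cells leave.

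The 8 genes lie side by side on chromosome 6 (GRCm38.p6, the RefSeq table of the build mm10 that the submitters named), from base 48647186 to 48770851, with 6 on the plus and 2, Gimap6 and Gimap3, on the minus strand. The 250 bases before an annotated start, from RefSeq, are shown for the 3 members that were highest in mature against Rag1-positive cells and for the 2 that were lowest. Capitals mark matches on either strand to any of 6 short motifs.
Gimap3, chr6:48770852-48771101, minus strand: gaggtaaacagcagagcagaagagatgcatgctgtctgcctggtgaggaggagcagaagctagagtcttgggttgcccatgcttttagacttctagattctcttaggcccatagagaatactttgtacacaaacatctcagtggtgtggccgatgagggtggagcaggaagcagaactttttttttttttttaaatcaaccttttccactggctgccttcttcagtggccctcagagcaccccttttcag
Gimap4, chr6:48684328-48684577, plus strand: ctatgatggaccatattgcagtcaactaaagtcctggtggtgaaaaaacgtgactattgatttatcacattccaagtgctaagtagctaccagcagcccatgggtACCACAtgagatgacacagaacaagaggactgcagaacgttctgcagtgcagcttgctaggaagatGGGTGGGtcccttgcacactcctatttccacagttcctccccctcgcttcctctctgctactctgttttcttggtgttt
Gimap5, chr6:48745947-48746196, plus strand: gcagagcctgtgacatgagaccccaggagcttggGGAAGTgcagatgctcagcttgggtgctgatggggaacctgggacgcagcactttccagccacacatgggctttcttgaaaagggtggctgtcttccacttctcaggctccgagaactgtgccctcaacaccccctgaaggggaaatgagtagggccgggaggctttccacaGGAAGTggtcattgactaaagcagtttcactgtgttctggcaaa
Gimap1, chr6:48738797-48739046, plus strand: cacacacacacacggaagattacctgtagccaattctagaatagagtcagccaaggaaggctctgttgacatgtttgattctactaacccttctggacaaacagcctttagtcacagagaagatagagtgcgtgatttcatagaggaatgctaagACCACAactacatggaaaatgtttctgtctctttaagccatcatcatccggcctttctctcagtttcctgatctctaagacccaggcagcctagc
Gimap9, chr6:48675885-48676134, plus strand: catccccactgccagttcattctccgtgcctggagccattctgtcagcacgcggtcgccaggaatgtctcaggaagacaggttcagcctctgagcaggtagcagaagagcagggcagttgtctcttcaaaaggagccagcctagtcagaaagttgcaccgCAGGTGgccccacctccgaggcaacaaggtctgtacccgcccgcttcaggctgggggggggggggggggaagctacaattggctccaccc
The ETS core was searched as GGAAGT, which is the centre of sites for a large family of lymphoid factors. The RUNX motif was searched as TGTGGT, and the motif of KLF and SP factors as CCCACCC. For E proteins, which act in early thymocytes, the E-box letters were CAGGTG. The remaining searches, with no match in these 5 sequences, were the TATA box as TATAAA and the motif of ROR receptors as AGGTCA. No matches overlapped here. Gimap4 held a RUNX match 145 bases and a KLF/SP match 79 bases before its start. In Gimap5 the ETS core stood 216 and 44 bases before the start. Gimap1 had a RUNX match at 95 bases and Gimap9 an E-box at 90 bases, while no motif was found in the window of Gimap3. The window of Gimap9 runs to base 48676134, past the gene's lowest coordinate of 48676121. Its distance therefore counts from a start inside the annotated gene. Such matches are common: of 32851 windows of the same length, 19.7% held the ETS core, 14.0% the RUNX, 15.8% the KLF/SP and 17.2% the E-box letters.

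Cells with at least 1000 UMIs were kept, which were 4227 of 4374 turnover and 4414 of 4587 autonomy barcodes. They held 20057936 and 16260384 UMIs, with medians of 2112 and 2430.5 per cell. Each cell was placed in a class by marker UMIs, in this order: macrophage transcripts, cell cycle genes, S1pr1 without Rag1 (called mature), at least 2 Itm2a UMIs (Itm2a-high), Cd5, Rag1, or none of these. The classes are ranges along maturation and not cell types. Rag1-positive cells numbered 2450 in turnover and 2789 in autonomy, Cd5-positive cells 513 and 676, Itm2a-high cells 205 and 237, and cycling cells 679 and 261. S1pr1 gave 77 mature cells in autonomy and 2 in turnover, so levels in mature cells are in effect those of autonomy. Cells with a productive alpha chain were 40.0% and 35.6% of the Rag1-positive and 70.0% and 59.3% of the Cd5-positive class. They were 86.3% and 90.7% of the Itm2a-high and 79.2% of the mature autonomy cells. The classes did not use these chains. In autonomy the share was lower in mature than in Itm2a-high cells, so it did not follow the class order throughout.

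A level is the UMIs of a gene per 1000000 UMIs of the class (CPM), with an exact 95% Poisson interval. With 1 library per condition there was no spread between animals and no test. Intervals cover counting error only and treat cells and UMIs as independent, although cells of 1 T cell clone are not: in Rag1-positive autonomy cells 1 beta chain was found in 117 cells. They may be too narrow. Cells of a class differ in depth, with medians of 15390 and 14708 UMIs in cycling, 1866 and 2261 in Rag1-positive and 10873 in mature autonomy cells.

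Gimap3 and Gimap4 were near absent in Rag1-positive cells of either library and prominent in mature autonomy cells. In autonomy, Gimap3 was at 1.19 CPM (0.513 to 2.34, 8 UMIs) in Rag1-positive, 39.8 in Cd5-positive, 86.2 in Itm2a-high and 361 CPM (321 to 405, 296 UMIs) in mature cells. Gimap4, the member linked to T cell death, was at 1.63 CPM (0.815 to 2.92, 11 UMIs), 57.1, 153 and 434 CPM (390.2 to 482, 356 UMIs) in the same order. No neighbouring intervals overlapped in either series. In turnover, Gimap3 was at 0.744 CPM (4 UMIs) in Rag1-positive, 6.25 (8 UMIs) in Cd5-positive and 26.9 (20 UMIs) in Itm2a-high cells. Gimap4 was there at 0.93 (5 UMIs), 9.37 (12 UMIs) and 40.3 CPM (30 UMIs). The 2 mature turnover cells held 1 UMI of Gimap3 and 5 of Gimap4. Cells with none of the markers, 357 in turnover and 243 in autonomy, have no place in this order. In turnover they had Gimap3 at 13.8 CPM (13 UMIs) and Gimap4 at 32.9 CPM (31 UMIs). These were 26% and 35.6% of the turnover UMIs of the 2 genes. In autonomy they had Gimap3 at 53.1 and Gimap4 at 105 CPM. Both genes were thus higher in them than in Cd5-positive cells of either library.

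**Figure D1:**
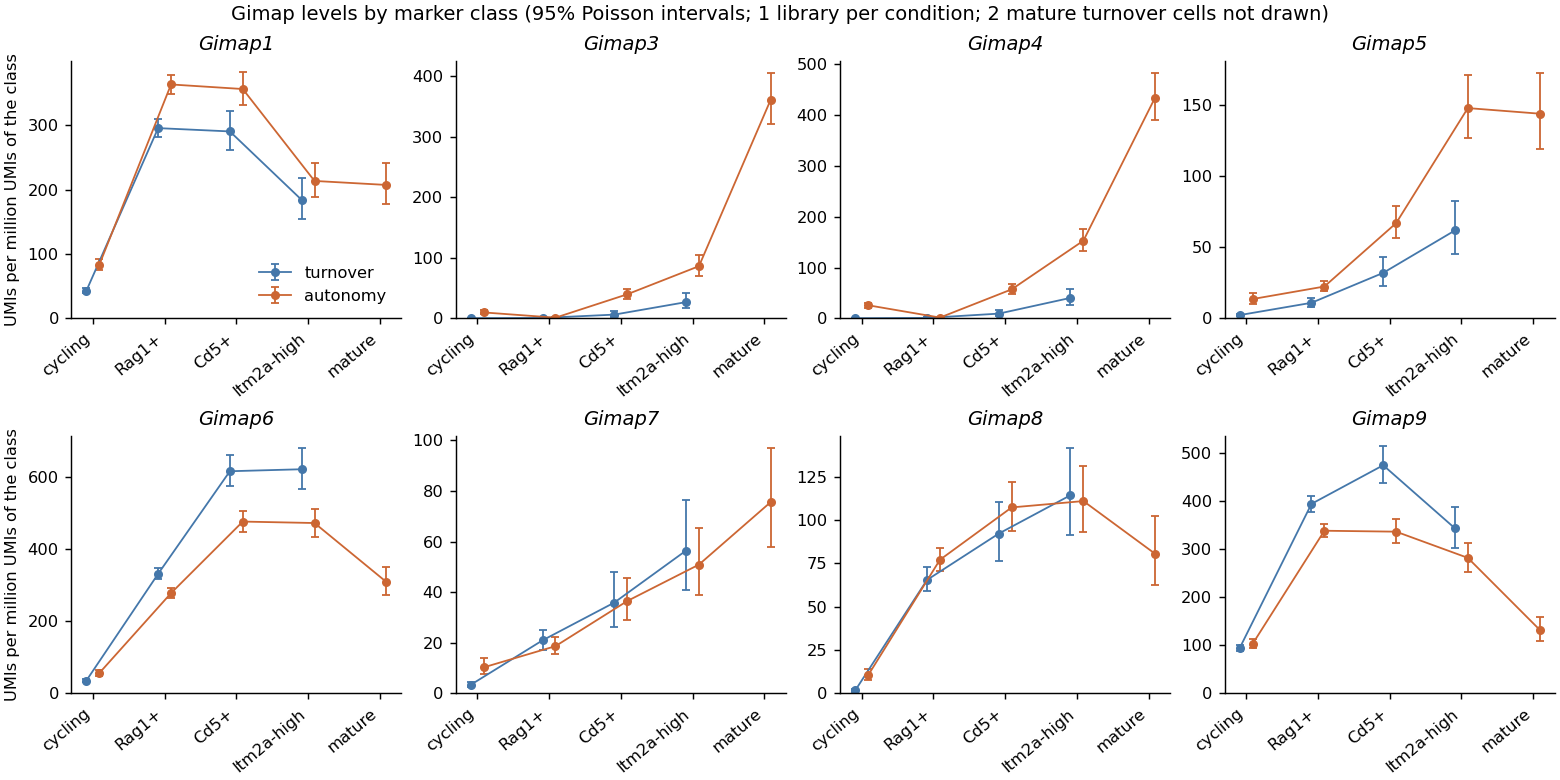
Level of each Gimap gene (UMIs per 1000000 UMIs, linear axes from 0) in 5 marker classes for turnover (blue) and autonomy (orange), points with 95% Poisson intervals, 1 library per condition; the 2 mature turnover cells are not drawn. Gimap3 and Gimap4 are near 0 in Rag1-positive cells and reach 361 and 434 in mature autonomy cells, while Gimap1 and Gimap9 are highest in Rag1-positive or Cd5-positive cells.

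As ratios to Rag1-positive cells of the same library, mature autonomy cells had 304 times the share of Gimap3 (152 to 711) and 266 times that of Gimap4 (147 to 537). Of 7451 genes with at least 100 UMIs over both classes, these stood in places 18 and 19 from the highest. Mature cells were 1.74% of autonomy cells and gave 5.04% of its UMIs, but 51.7% of its Gimap3 UMIs and 41.6% of its Gimap4 UMIs. With every cell thinned to 1000 UMIs, 35.1% of mature cells (24.5 to 46.8) kept a Gimap3 UMI and 40.3% (29.2 to 52.1) one of Gimap4, against 0.179% and 0.0717% of Rag1-positive cells. Before thinning 89.6% of mature cells had each gene, against 0.251% of Rag1-positive cells for each. Thinned in the same way, Gimap1 was found in 9.09% of mature and 30.0% of Rag1-positive cells, and Gimap9 in 11.7% and 27.9%. Over 11 alternatives the Gimap3 ratio lay between 229 and 451. It had no value in cells with only Y-linked UMIs, where Rag1-positive cells held 0 Gimap3 UMIs, or without cells with a Klf2 UMI, which left fewer than 20 UMIs. The Gimap4 ratio went down to 151 without cells with a Klf2 UMI, which leaves 6 mature cells, and up to 713 in cells with only Y-linked UMIs, where 1 UMI stood in the Rag1-positive class.

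Gimap5, needed for the survival of T cells outside the thymus, and Gimap7 were also higher with maturation, from a clear level at the Rag1-positive stage. In autonomy Gimap5 was at 22.4 CPM (19.0 to 26.3) in Rag1-positive, 67.0 (56.4 to 78.9) in Cd5-positive, 148 (127 to 171) in Itm2a-high and 144 CPM (119 to 172) in mature cells. In turnover its levels were 10.97 (8.35 to 14.1), 32.01 (23.0 to 43.4) and 61.8 CPM (45.3 to 82.5) from Rag1-positive to Itm2a-high cells. Gimap5 had therefore reached its mature level by the Itm2a-high class in autonomy, where the ratio of mature to Itm2a-high cells was 0.973 (0.765 to 1.23), unlike the 4.19 (3.34 to 5.28) of Gimap3 and the 2.84 (2.37 to 3.41) of Gimap4. Gimap7 ran from 18.7 CPM (15.6 to 22.3) through 36.5 and 50.9 to 75.6 CPM (58.0 to 96.9) in autonomy. Its turnover levels, 21.0, 35.9 and 56.5 CPM, lay within the autonomy intervals at each of the first 3 stages. Mature over Rag1-positive ratios in autonomy were 6.42 (5.002 to 8.22) for Gimap5 and 4.04 (2.93 to 5.52) for Gimap7. In cells with only Y-linked UMIs they were 3.67 and 6.20. Without cells with a Klf2 UMI, which leaves only 6 mature cells, Gimap5 was at 1.22.

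Gimap6 and Gimap8 followed another course, with their highest levels around selection. Gimap8 is the long family member that carries several GTP-binding domains. In turnover Gimap6 was at 332 CPM (317 to 348) in Rag1-positive, 617 (575 to 661) in Cd5-positive and 622 CPM (567 to 682) in Itm2a-high cells. In autonomy it was at 279 (266 to 291), 477 (448 to 507) and 473 CPM (435 to 513), and lower again, at 309.8 CPM (273 to 350.3), in mature cells. Gimap8 went from 65.4 to 92.1 and 114 CPM in turnover and from 77.05 to 107, 111 and 80.5 CPM in autonomy. Mature cells had 0.655 times the Gimap6 (0.563 to 0.760) and 0.726 times the Gimap8 (0.532 to 0.981) of Itm2a-high cells. As log2 ratios these were -0.61 and -0.46, near the median of -0.45 over 3243 genes in this comparison. Against Rag1-positive cells the mature ratios were 1.11 (0.972 to 1.27) and 1.04 (0.796 to 1.35), intervals that include 1. Without cells with a Klf2 UMI, which leaves only 6 mature cells, the ratio was 0.626 for Gimap6 and 0.699 for Gimap8.

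Gimap1 and Gimap9 were lower in mature than in Rag1-positive cells. Gimap1, needed for mature lymphocytes, was at 363 CPM (349 to 378) in Rag1-positive, 356 in Cd5-positive, 214 (188 to 241) in Itm2a-high and 207 CPM (177 to 241) in mature autonomy cells. In turnover it stood at 296, 290.5 and 184 CPM (155 to 218) over the first 3 classes. Gimap1 thus stepped down between the Cd5-positive and Itm2a-high classes in both libraries and was not seen to move further. Gimap9 was at 339 (325 to 353), 337, 283 (253 to 314) and 133 CPM (109 to 160.4) in autonomy, its main step falling after the Itm2a-high class. In turnover it was at 395, 476 (438 to 515) and 344 CPM (303 to 389). Mature over Rag1-positive ratios were 0.570 (0.485 to 0.667) for Gimap1 and 0.392 (0.320 to 0.475) for Gimap9. Their log2 ratios were -0.81 and -1.35, against a median of -0.80 over all 7451 genes. Gimap1 stood in place 3779 and Gimap9 in place 5539 from the highest, so the lower share of Gimap1 was that of a typical gene.

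Over the whole family, 4 of 8 members were at least 2-fold higher and 1, Gimap9, at least 2-fold lower in mature than in Rag1-positive autonomy cells. Of all 7451 genes, 5.48% were that much higher and 40.2% that much lower. The median log2 ratio was 1.08 for the members and -0.80 for all genes, so a gene with an unaltered share of its cell stands above most others here. Scaling by TMM factors moved all log2 ratios of this comparison by 0.57. As plain ratios, Gimap1 then stood at 0.846, Gimap9 at 0.581 and Gimap6 at 1.65, so Gimap1 and Gimap9 stayed below 1. Summed over the members, the level went from 1102 CPM (1077 to 1127) in Rag1-positive to 1478, 1518 and 1745 CPM (1656 to 1838) in mature autonomy cells. In turnover the sum was 1122, 1558 and 1450.3 CPM over the first 3 classes. The sum, a ratio of 1.58 (1.496 to 1.68) in autonomy, joins members that stood on both sides of 1.

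**Figure D2:**
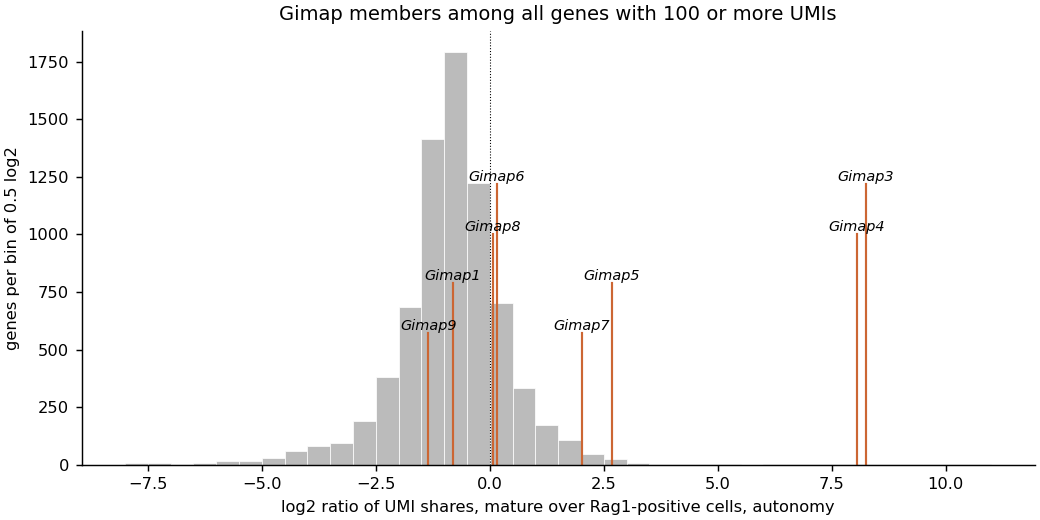
Number of genes (bars, bins of 0.5 log2) by log2 ratio of UMI shares in mature over Rag1-positive autonomy cells, for 7451 genes, with the 8 Gimap genes as lines whose heights carry no value. Gimap3 and Gimap4 stand beyond 8 on the log2 scale, Gimap5 and Gimap7 above 2, Gimap6 and Gimap8 near 0, and Gimap1 and Gimap9 below 0.

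The step from Rag1-positive to Itm2a-high cells could be followed in both libraries. In autonomy 4 of 8 members were at least 2-fold higher, against 5.78% of 7595 genes, and in turnover 2 of the 6 members with enough UMIs, against 2.96% of 6583. None of them was at least 2-fold lower, against 16.2% and 9.66% of genes. The autonomy ratios were 72.6 (35.5 to 173) for Gimap3, 93.6 (51.1 to 191) for Gimap4, 6.60 (5.28 to 8.24) for Gimap5 and 2.72 (1.98 to 3.72) for Gimap7. Turnover gave 5.64 (3.75 to 8.43) for Gimap5 and 2.69 (1.84 to 3.86) for Gimap7. From fewer than 100 UMIs each, its ratios for Gimap3 and Gimap4 were 36.2 (12.1 to 145) and 43.4 (16.7 to 143). Gimap1 was lower in both, at 0.588 (0.515 to 0.668) in autonomy and 0.623 (0.519 to 0.742) in turnover. For Gimap9 the autonomy ratio of 0.833 went to 1.03 when classes were set after thinning.

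At the earlier step, from Rag1-positive to Cd5-positive cells, Gimap5 was at least 2-fold higher in both libraries. At least 2-fold higher were 2 of 7 members in autonomy (1.39% of 7775 genes), Gimap4 and Gimap5, and 1 of 6 in turnover (1.36% of 6776), Gimap5. None was that much lower, against 1.08% and 1.49% of genes. Gimap5 gave ratios of 2.99 (2.36 to 3.78) and 2.92 (1.91 to 4.42). Gimap4 in autonomy gave 35.0 (18.9 to 71.9), and Gimap3, on fewer UMIs, 33.5 (16.3 to 80.1). In turnover these 2 had too few UMIs for a ratio. Gimap6 was 1.71 times (1.59 to 1.85) and 1.86 times (1.71 to 2.02) as high in autonomy and turnover. Gimap1 had ratios of 0.980 (0.903 to 1.06) and 0.983 (0.875 to 1.10).

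Even within Rag1-positive cells, those with a productive alpha chain had slightly more of several members in turnover. Their ratio to cells without one was 1.83 (1.24 to 2.69) for Gimap7, 1.32 (1.201 to 1.45) for Gimap6, 1.19 (1.08 to 1.32) for Gimap1 and 1.17 (1.07 to 1.28) for Gimap9. In autonomy the same ratios were 1.27 (0.876 to 1.84), 1.11 (1.01 to 1.22), 1.03 (0.947 to 1.12) and 1.14 (1.04 to 1.24). Whether the libraries differ in this was not tested. The 2 groups also differed in early markers in turnover. Cells without an alpha chain had Il2ra at 156 and Trdc at 52.5 CPM, against 12.7 CPM for each gene in cells with one. In autonomy Il2ra was at 159 and 148 CPM and Trdc at 12.4 and 6.13 CPM in the same order. The part of earlier cells in these ratios was not tested, and no background over all genes is given for this split.

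Cycling cells had lower levels than Rag1-positive cells for most members. In turnover, all 5 members with enough UMIs were at least 2-fold lower than in Rag1-positive cells, against 31.7% of 8450 genes, and none was higher, against 10.9%. Gimap8 had 0.0277 times the share (0.0169 to 0.0430), Gimap6 0.108, Gimap1 0.145, Gimap7 0.164 and Gimap9 0.240 (0.223 to 0.258). Gimap9 thus had the highest ratio of these 5. In autonomy 4 of 7 members were at least 2-fold lower, against 33.7% of 8241 genes, and 1, Gimap4, was at least 2-fold higher, against 11.2%. Gimap5 and Gimap7 had log2 ratios of -0.72 and -0.86 there, against a median of -0.58 over all genes. Gimap4 stood at 25.8 CPM (21.2 to 31.1, 110 UMIs) and Gimap3 at 9.86 CPM (7.10 to 13.3, 42 UMIs) in cycling autonomy cells, against 4 UMIs each in the turnover class. The 67 cycling autonomy cells with a Klf2 UMI held 100 of the Gimap4 and 38 of the Gimap3 UMIs. These cells had S1pr1 at 24.8 and Rag1 at 84.4 CPM, against 0 and 158 CPM in the other 194. No doublet caller was run, and the part of doublets in this was not tested.

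Klf2, the factor that controls exit from the thymus, was then used to split the other classes. Gimap3 in Itm2a-high autonomy cells was at 285 CPM (46 UMIs) in the 17 cells with a Klf2 UMI and at 55.9 CPM (59 UMIs) in the 220 without. Gimap4 was at 359 and 121 CPM in those cells. In Cd5-positive autonomy cells the values were 190.2 and 15.2 CPM for Gimap3 and 264 and 23.4 CPM for Gimap4, over 54 and 622 cells. Gimap9 went the other way, at 142 against 304 CPM in Itm2a-high and 250.3 against 351 CPM in Cd5-positive cells. A Klf2 UMI did not go with Gimap3 or Gimap4 everywhere: the 51 Rag1-positive autonomy cells with one had Klf2 at 414 CPM but 0 UMIs of Gimap3 and 1 of Gimap4. Cells with Klf2 were deeper, with median UMIs of 8256 against 4034.5 in the Itm2a-high class. Among mature cells, the 6 without a Klf2 UMI had Gimap5 at 26.9 CPM (2 UMIs), against 156 CPM in the 71 with one.

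**Figure D3:**
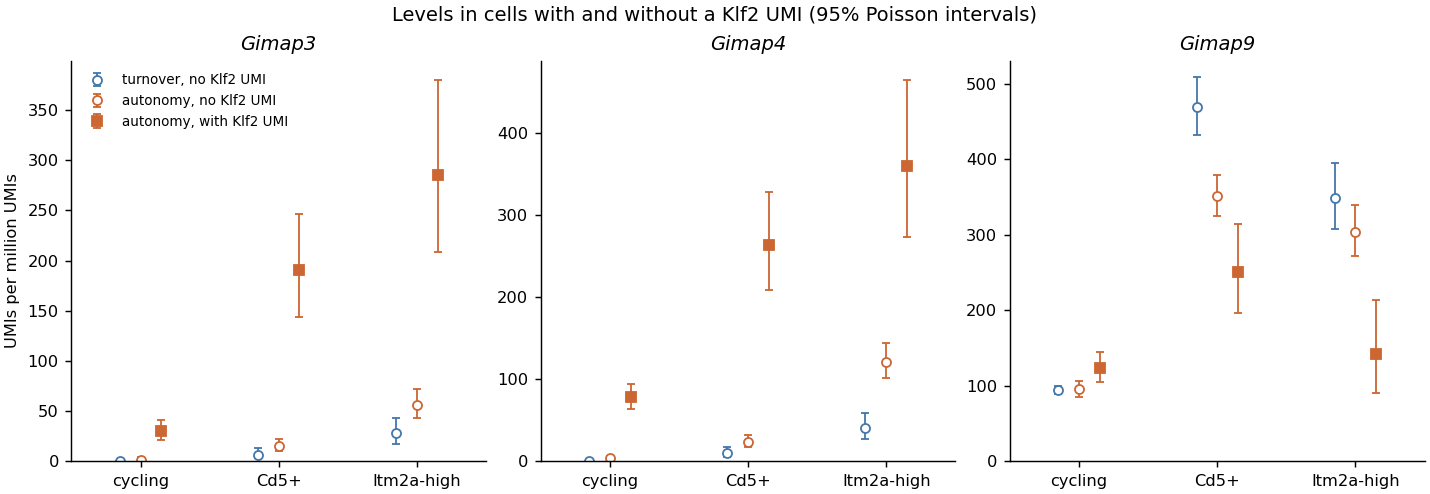
Levels of Gimap3, Gimap4 and Gimap9 (UMIs per 1000000 UMIs, linear axes from 0) in cycling, Cd5-positive and Itm2a-high cells, split by a Klf2 UMI, with 95% Poisson intervals; turnover cells with a Klf2 UMI (12, 7 and 3 cells) are not drawn. In autonomy the filled squares, cells with Klf2, lie above the open circles for Gimap3 and Gimap4 in each class, and below them for Gimap9 in the Cd5-positive and Itm2a-high classes.

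Within Itm2a-high autonomy cells, Ccr7, the chemokine receptor of cells moving to the medulla, split the family further. Cells with a Ccr7 UMI had 3.28 times the Gimap4 (2.43 to 4.42) and 2.07 times the Gimap3 (1.35 to 3.13) of those without. Gimap8 had a ratio of 0.423 (0.225 to 0.738), from 14 UMIs in cells with Ccr7, and Gimap9 one of 0.636 (0.463 to 0.859). Those were 2 members at least 2-fold higher and 1 lower of 7, against 1.78% and 6.14% of 2197 genes. Between mature and Itm2a-high cells 2 of 8 members, Gimap3 and Gimap4, were at least 2-fold higher and 1, Gimap9 at 0.470 (0.376 to 0.585), was lower, against 3.98% and 13.9% of 3243 genes. The member past 2-fold was Gimap8 with Ccr7 and Gimap9 in mature cells, but both were below 1 in both comparisons. Gimap8 had 0.726 (0.532 to 0.981) in mature over Itm2a-high cells. The 1 lower of 8 members there is close to the 13.9% of all genes. In turnover only 15 Itm2a-high cells had a Ccr7 UMI. Their ratio to those without was 1.62 (0.714 to 3.24) for Gimap8 and 1.16 (0.695 to 1.83) for Gimap9. The lower values of these 2 genes with Ccr7 were thus not seen there. Gimap3 was at 7.37 (2.49 to 19.9) and Gimap4 at 1.52 (0.295 to 4.94) in the same turnover split.

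The mature class was checked against its markers. Of 77 autonomy cells 68 had Cd8 UMIs and no Cd4 UMI. Klf2 was at 659 and Ccr7 at 345 CPM, and 68 distinct beta chains were seen, none in more than 1 cell. The sort was for immature cells, and the class held genes of circulating or effector cells too: all 10 such markers were detected, summing to 1274 CPM against 20.2 in Rag1-positive cells. Of the natural killer and innate-like markers 8 of 12 were detected (1252 against 147 CPM), with Klrb1c, Ncr1, Tbx21 and Gzmb at 0. Both lists hold Ccl5, Nkg7 (585 UMIs) and Il2rb (124 UMIs), so the sums are not independent. In mature autonomy cells the lists summed to 1045 and 1027 UMIs, most of them from Nkg7 and Il2rb. The 6 gamma-delta markers summed to 185 against 21.7 CPM. Macrophage markers were at 0 apart from Ctss (124 UMIs), and Cd79a, Ms4a1 and Pax5 of the B cell markers were at 0. The B cell markers Ighm and Cd79b had 184 and 17 UMIs, and the list summed to 245 against 545 CPM in Rag1-positive cells. The part of recirculating or innate-like cells in the mature levels was not tested, but the levels could be split. Gimap3 was at 324 CPM in the 33 mature cells with Ly6c2 and at 392 CPM in the 44 without. Gimap4 was at 412 and 453 CPM in these cells. Without the 7 cells with a Trdc UMI, Gimap3 stood at 343 and Gimap4 at 407 CPM. In the 49 mature cells with only Xist, Gimap3 was at 377 and Gimap4 at 414 CPM, and in the 17 with only Y-linked UMIs they were at 338 and 507 CPM. Each of these subsets lay far above the Itm2a-high level of the same gene.

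Other gene lists were read against the background of all 7451 genes, of which 5.48% were higher and 40.2% lower with a median log2 ratio of -0.80. Of the listed mature thymocyte genes, 15 of 19 tested were at least 2-fold higher in mature than Rag1-positive autonomy cells and 1 lower, with a median log2 ratio of 4.05. Of 11 genes of the selection stage 8 were higher and 1 was lower. All 11 DP-stage genes were at least 2-fold lower. The gates themselves used S1pr1 on the first of these lists, Cd5 and Itm2a on the selection list and Rag1 on the last. Rag1-positive cells could hold no Cd5 UMI and fewer than 2 Itm2a UMIs. The direction of these genes was therefore set or favoured by the gates. In the BCL2 family, which controls mitochondrial cell death and to which GIMAP proteins have been linked, 1 of 10 was higher and 7 were lower (median -1.44). Bcl2, the higher one, had a ratio of 31.6 (22.8 to 44.6), and Bcl2l1, the survival gene of DP cells, one of 0.0704 (0.0384 to 0.119). Bax had 1.03 (0.860 to 1.22) and Mcl1 0.432 (0.323 to 0.567). Of 15 other immune GTPases and their regulators, 3 were higher and 2 lower (median 0.29). The 3 were the interferon-inducible Ifi47 at 2.80, Irgm1 at 2.93 and Gbp9 at 2.89, and the 2 were Rhoh at 0.336 and Rasgrp1 at 0.357. These 5 and Bcl2 were named after their values were seen.

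Near the cluster, Lrrc61 alone among the genes that are no members had enough UMIs for a ratio. Lrrc61, 92.4 kb before the lowest coordinate of Gimap8, had a mature over Rag1-positive ratio of 1.14 (0.646 to 1.91). On the side beyond Gimap3 no gene had enough UMIs, and Tmem176b and Tmem176a had 94 and 54 UMIs in Rag1-positive and 1 and 0 in mature cells. Position within the cluster did not order the members: the lowest coordinate of Gimap4 lies 37.4 kb and that of Gimap3 117 kb past that of Gimap8, with lower members between them. Gimap1 and Gimap5 are neighbours on the same strand and had ratios of 0.570 and 6.42. Gimap3 and Gimap5 are close paralogs, so reads could have been shared between them, and the antisense Gm46958 overlaps the start of Gimap9. How the counting treated shared reads and strand was not given in the sources used here.

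**Figure D4:**
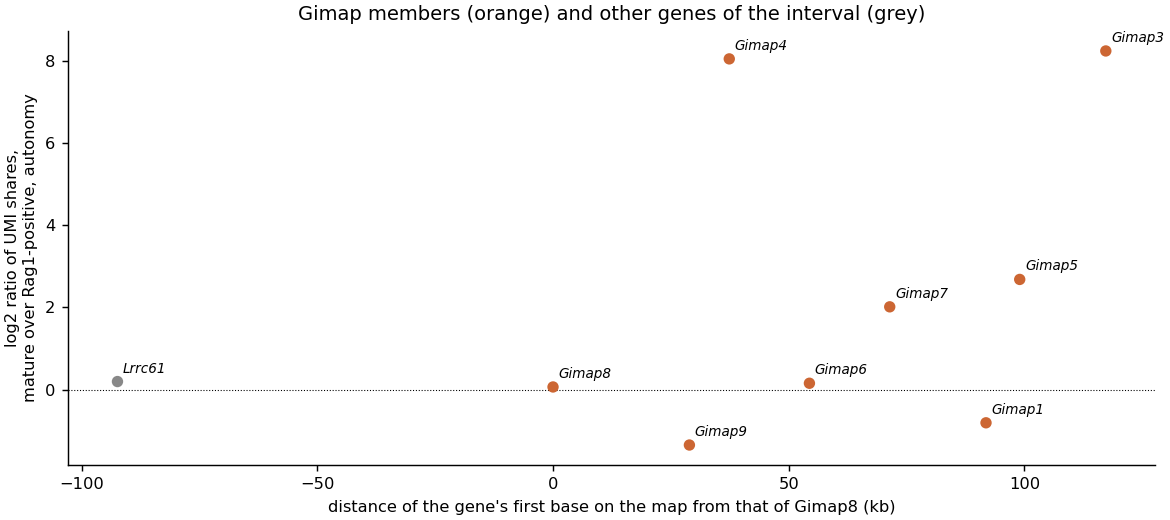
Log2 ratio of UMI shares in mature over Rag1-positive autonomy cells against the distance of a gene's lowest coordinate from that of Gimap8 (kb), for the Gimap genes (orange) and the neighbour with enough UMIs (grey). Gimap9 below 0 lies next to Gimap4 above 8, and Gimap1 below 0 next to Gimap5 above 2.

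Between conditions, Gimap5 was higher in autonomy in the Rag1-positive, Cd5-positive and Itm2a-high classes. In Rag1-positive cells it had 2.04 times the turnover share (1.503 to 2.81), in Cd5-positive cells 2.09 times (1.47 to 3.04) and in Itm2a-high cells 2.39 times (1.72 to 3.38). It was the 1 of 6 members at least 2-fold higher in Rag1-positive cells, against 8.76% of 8252 genes, and none was that much lower, against 1.19%. Over 13 alternatives, that ratio of Gimap5 lay between 1.87 and 2.68, so it fell short of 2-fold under some, TMM factors among them. At 151 and 59 UMIs it stood in place 674 from the highest, behind many other genes.

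Gimap3 and Gimap4 differed between conditions after the Rag1-positive stage. In Itm2a-high cells their autonomy over turnover ratios were 3.21 (1.98 to 5.47) and 3.79 (2.57 to 5.77), and with Gimap5 they made 3 of 8 members at least 2-fold higher, against 5.23% of 3344 genes. None was that much lower, against 1.05%. Among Cd5-positive cells Gimap4 had 6.10 (3.37 to 12.1) and Gimap3, on fewer UMIs, 6.37 (3.09 to 15.2). Gimap4 and Gimap5 were 2 of 7 members at least 2-fold higher there, against 7.42% of 5226 genes, and none was lower, against 0.517%. Autonomy held more cells with Klf2 in these classes, 54 against 7 and 17 against 3. Leaving such cells out gave 1.99 (1.18 to 3.49) for Gimap3 and 2.98 (1.98 to 4.63) for Gimap4 in Itm2a-high cells, and 2.39 (1.06 to 6.08) and 2.45 (1.27 to 5.11) in Cd5-positive cells. For Gimap5 the Itm2a-high value was then 2.35 (1.66 to 3.39). Over all alternatives the Itm2a-high ratios lay between 1.91 and 5.50 for Gimap3, 2.75 and 5.84 for Gimap4, and 1.79 and 3.06 for Gimap5. The highest Gimap3 value came from cells with only Y-linked UMIs and the highest Gimap4 value from Itm2a-high cells taken from 1 UMI.

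The abundant members differed less and not in 1 direction. Gimap1 was higher in autonomy, at 1.23 (1.15 to 1.31) in Rag1-positive and 1.23 (1.08 to 1.39) in Cd5-positive cells. Gimap6 was lower, at 0.839 (0.786 to 0.895), 0.774 (0.704 to 0.850) and 0.760 (0.671 to 0.861) in Rag1-positive, Cd5-positive and Itm2a-high cells. Gimap9 was at 0.858 (0.809 to 0.911), 0.709 (0.636 to 0.791) and 0.821 (0.696 to 0.969). In cells with at least 2000 UMIs the Rag1-positive values were 1.001 for Gimap6 and 0.972 for Gimap9. Gimap7 had 0.890 (0.685 to 1.16) and Gimap8 1.18 (1.03 to 1.35) in Rag1-positive cells. Summed, the family ratio was 0.982 (0.949 to 1.02) in Rag1-positive and 1.05 (0.970 to 1.13) in Itm2a-high cells. As log2 ratios these were -0.026 and 0.066, against medians of 0.17 and 0.03 over all genes.

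**Figure D5:**
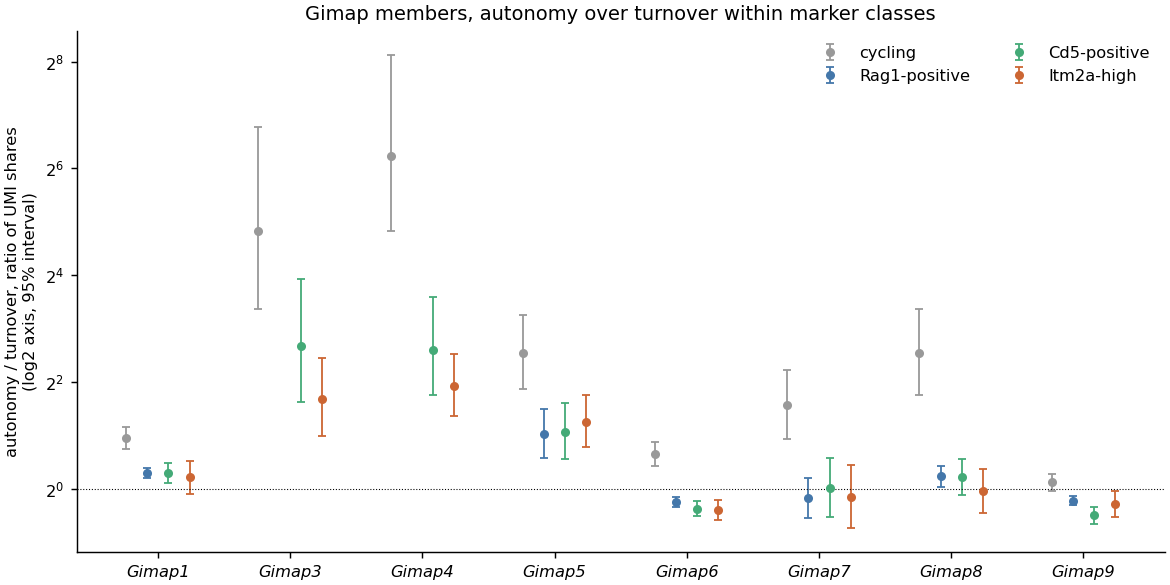
Ratio of UMI shares in autonomy over turnover (log2 axis) for each Gimap gene within 4 marker classes, with 95% conditional exact intervals that cover counting error only; ratios need at least 20 UMIs over both libraries. Gimap5 lies at 2.04 to 2.39 in the Rag1-positive, Cd5-positive and Itm2a-high classes, Gimap6 and Gimap9 lie below 1 in the same 3 classes, and Gimap3 and Gimap4 have no ratio in Rag1-positive cells.

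Over all cells, without regard to class, 4 of 8 members were at least 2-fold higher in autonomy, against 14.3% of 9913 genes, and none lower, against 2.65%. Gimap3 had 14.1 (10.6 to 19.3), Gimap4 12.1 (9.73 to 15.3), Gimap5 4.42 (3.76 to 5.22) and Gimap8 2.07 (1.87 to 2.28). These include the makeup of the libraries: cycling cells were 16.1% of turnover and 5.91% of autonomy cells and, being deep, gave 57.7% of all turnover UMIs. When each cell had equal weight, the family sum was 1.03 times as high in autonomy in place of 1.64, and Gimap6 was at 0.852 in place of 1.38. Gimap5 was then at 2.40. Without cells with a Trdc UMI, the gamma-delta chain, the family sum was at 1.17. Among cycling cells 1 of 4 members with enough UMIs, Gimap4, was at least 2-fold higher in autonomy, against 7.05% of 7988 genes, at 74.7 (28.4 to 279), and none was lower, against 0.889%.

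The number of members found per cell was low at equal depth. Thinned to 1000 UMIs, Rag1-positive cells had on average 1.01 of the 8 members in turnover and 0.933 in autonomy, Itm2a-high cells 1.33 and 1.28, and mature autonomy cells 1.49. Cycling cells had 0.237 and 0.364. No member was found in 31.5% and 35.8% of thinned Rag1-positive cells and in 20.8% of thinned mature autonomy cells. At full depth 13 of the 77 mature cells held all 8 members, and none of the 2789 Rag1-positive autonomy cells did.

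Levels were also compared across 12 groups of at least 50 cells, by class and library, with the correlation of log2(CPM + 10) as a description. The groups share 2 libraries and differ in depth. Gimap3 and Gimap4 were most alike (r = 0.983), followed by Gimap6 and Gimap8 (r = 0.976), while Gimap3 and Gimap9 had r = -0.15 and Gimap1 and Gimap3 r = 0.17. Of 8990 genes, those most like the family sum were Sp100 (0.992), Jak1 (0.991), Cd37 (0.985), Il2rg (0.981), Sp110 (0.979), Rinl (0.977), Itgb2 (0.977) and Msn (0.973). Il2rg and Jak1 encode the shared receptor chain and the kinase through which interleukin-7 signals.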

How the data were processed

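The deposited gene expression tables held UMI counts per gene and cell; per the submitters' processing notes Cell Ranger 3.0.2, Seurat 3.1.3.9002 and mm10 were used. Neither annotation nor cell calling is given in the sources used here. The V(D)J tables, as deposited, gave chains and productive calls. Every deposited column of cells was used, and 29 barcodes occurred in both libraries. Gates for the classes were at least 2 UMIs over 6 macrophage genes, at least 3 UMIs and 1500 CPM over 20 cell cycle genes, and 1 UMI of S1pr1, Cd5 or Rag1. UMIs were summed per class. Ratios needed 20 UMIs for a member and 100 for background counts, and carry conditional exact binomial intervals; a 0 was bounded with a floor of 3 counts. Shares of cells carry exact binomial intervals. No doublets were removed. The 8 members and the 8 genes most like their sum (at least 200 UMIs) were always named, with up to 4 genes per list by rank of UMIs. Members, lists and motifs were chosen with earlier results of these data known. On simulated data with 7365 genes for mature over Rag1-positive cells in autonomy, all 4-fold genes were found and 95.8% of true values lay within their intervals. The simulated counts were independent Poisson draws, the model the intervals assume, with no spread between cells, clones or animals. They therefore check the calculation only and not the width of the intervals for real cells. Alternatives covered depth, gates, thinning, weighting, TMM factors, sex transcripts and clones. Calculations ran in R 4.3.3 with edgeR 4.0.16 (TMM factors only) and in Python 3.11.15 with pandas 2.3.3, scipy 1.17.1, matplotlib 3.10.9 and numpy 2.4.6.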

Additional observations from a re-analysis of the deposited data

Results flagged for a closer look

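Gimap6 stood on opposite sides of 1 in different classes: its autonomy over turnover ratio was 1.57 (1.34 to 1.85) in cycling and 0.760 (0.671 to 0.861) in Itm2a-high cells. The difference between the classes was not tested.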

How the results depend on the processing

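For the summed family, 67 of 90 values under other settings stayed close to the reported one, 22 moved and 1 reversed. For single members 563 of 650 stayed close, 87 moved and 0 reversed. Close means within the interval of the reported ratio. Only ratios at least 2-fold from 1 could be called reversed, so smaller ratios that crossed 1 are not among the reversed. Gimap6 in all cells, for example, went from 1.38 to 0.852 when each cell had equal weight. Mature over Rag1-positive in turnover rests on 2 cells (2.46): it was 1.24 with TMM factors and reversed to 0.957 with a wider gate for mature cells. In autonomy (1.58) it was 2.35 with TMM factors, 1.70 in cells with only Y-linked UMIs and 0.829 without cells with a Klf2 UMI, which leaves 6 mature cells. Itm2a-high over Rag1-positive in turnover (1.29) was 1.46 from 2000 UMIs, 1.39 as a mean over cells and 1.19 with Itm2a-high from 1 UMI. In autonomy (1.38) it was 1.47 with thinned classes, 1.52 as a mean over cells and 1.53 with TMM factors. Autonomy over turnover in all cells (1.64) was 2.03 from 2000 UMIs, 1.03 as a mean over cells, 1.33 with TMM factors, 1.92 with only Y-linked UMIs and 1.17 without cells with a Trdc UMI. In Rag1-positive cells (0.982) the same settings gave 1.11, 0.918, 0.899, 1.05 and 0.948. In Itm2a-high cells (1.05) it was 1.17 with only Y-linked UMIs and 0.966 without Trdc. The cause was not tested. TMM factors moved log2 ratios by -0.99 and 0.57 for mature over Rag1-positive in turnover and autonomy, 0.15 for Itm2a-high over Rag1-positive in autonomy, and -0.29 and -0.13 for autonomy over turnover in all and Rag1-positive cells. Background counts depend on the UMI minimum: genes at least 2-fold higher in mature autonomy cells numbered 408 at 100, 835 at 20 and 1744 at 1 UMI, and in Itm2a-high cells 439, 871 and 1726 in autonomy and 195, 573 and 1628 in turnover, where 636, 1152 and 1200 were lower. For autonomy over turnover the higher genes numbered 1418 and 2764 at 100 and 1 UMI in all, 723 and 1502 in Rag1-positive, and 175, 752 and 1233 in Itm2a-high cells at 100, 20 and 1. The lower ones numbered 263, 475 and 813 in all, 98, 348 and 861 in Rag1-positive, and 35, 263 and 878 in Itm2a-high cells. Alternatives without cells with Trdc or Klf2 UMIs, or without shared barcodes, were chosen after seeing the data. No paired analysis was possible because each condition had 1 library and ratios come from no test.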

Other observations

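Cells with at least 2 Il2ra UMIs and no Cd8a or Cd8b1 UMI, the marker pattern of early DN stages, numbered 102 in turnover and 14 in autonomy. In turnover the family summed to 285 CPM in them (273 UMIs), led by Gimap9 at 114 and Gimap1 at 113 CPM, and Gimap3 and Gimap4 had 1 UMI each. Of these cells 60 had a Trdc UMI, and their sum was 294 CPM against 269 CPM in the 42 without one.

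The 131 autonomy cells with macrophage transcripts had Gimap3 at 6.67 CPM (3 UMIs), Gimap4 at 8.90 (4 UMIs) and Gimap1 at 263 CPM. The 10 mature autonomy cells with few innate-like UMIs had Gimap3 at 864 CPM (46 UMIs), against 326 CPM in the other 67.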
